A study of Mus musculus with 27 samples.

Results

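Mouse embryonic stem cells lacking Mettl3, the enzyme that writes most N6-methyladenosine (m6A) in messenger RNA, were compared with wild-type cells by RNA sequencing. The 4 libraries, 2 of Mettl3-/- cells (Mettl3 KO, A and B) and 2 of wild-type cells (WT, A and B), were chosen by genotype from 12 stem cell libraries, in a series of 27 samples that also holds germ cell samples not used here. The stem cells were of the KH2 line, of C57BL/6 and 129/Sv origin, and all of them were grown in serum with LIF. The 12 libraries cover Mettl3-/-, the triple knockout of Ythdf1, Ythdf2 and Ythdf3 (triple KO), the 3 single Ythdf knockouts and WT, with 2 libraries of each. RNA was selected for poly(A) and made into libraries with a ScriptSeq kit. The labels do not say whether A and B are separate cultures or clones, nor which part of Mettl3 was deleted, so p-values measure only the spread between these libraries, which may be technical, and clone and genotype cannot be told apart.

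Mettl3 works in a complex with Mettl14, which holds the RNA, and with Wtap, Virma, Rbm15, Zc3h13 and Cbll1, which place the complex on its targets. The mark is read by Yth-domain proteins, of which the cytoplasmic Ythdf proteins are best known for shortening the life of methylated transcripts, and it can be removed by Alkbh5 and Fto. In mouse stem cells the mark is known for limiting the persistence of transcripts of the pluripotent state, so that cells without it are slow to leave that state. The series addresses whether the Ythdf readers replace one another, and the Mettl3 KO cells are its case of cells without the writer itself.

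The deposited table gave 618349 and 859558 gene counts for Mettl3 KO A and B, against 1099347 and 1111764 for WT A and B, and between 612598 and 1111764 over the 12 libraries. These counts varied less between A and B of a group than counting noise allows: the chi-square per gene was between 0.675 and 0.833 in 6 of 6 groups, where counting noise alone gives 1. In the fit the median quasi-dispersion was 0.706, and 98.4% of genes were under 1. The most abundant gene took between 0.163% and 0.182% of a library. Genes of the Y chromosome separated the Mettl3 KO from the WT libraries, as described with those genes further on. Summed over 10 embryonic stem cell markers (among them Pou5f1, Sox2, Nanog and Zfp42), expression was 3906 and 3517 CPM (read counts scaled to a common library size by TMM) in Mettl3 KO, against 3506 and 3454 CPM in WT, with 10 of 10 present in both. By edgeR, 4 of these 10 markers rose and 3 fell, against 15.2% and 15.1% of all tested genes. Markers of other cell types were low beside these stem cell markers. Feeder fibroblast markers summed to 120 and 135 CPM in Mettl3 KO and 225 and 210 CPM in WT, and Dcn, Lum, Postn and Acta2 were absent from the table. Trophoblast markers summed to 36.1 and 46.9 CPM in Mettl3 KO and 102 and 99.9 CPM in WT, and primitive endoderm markers to 29.6 and 26.9 CPM in Mettl3 KO and 45.9 and 40.1 CPM in WT. Neural markers ran the other way, at 200 and 187 CPM in Mettl3 KO and 86.5 and 82.9 CPM in WT. Mesoderm markers summed to 82.1 and 98.4 CPM in Mettl3 KO and 125 and 122 CPM in WT. The trophoblast and mesoderm sums are not separate results, since Eomes is in both. Eomes alone had 29.6 and 37.5 CPM in Mettl3 KO and 76.6 and 75.8 CPM in WT. In bulk RNA, fewer cells of a type and less RNA per cell cannot be told apart.

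Mettl3 transcripts were nearly lost in the knockout. Mettl3, on chromosome 14 (52294841 to 52305128, minus strand, GRCm38), had 18.1 and 15.2 CPM in Mettl3 KO, against 141 and 137 CPM in WT. The log2 fold change was -3.07 ± 0.18 (edgeR adjusted p = 1.03e-23), and the other 8 libraries of the triple and single knockouts lay between 122 and 147 CPM. Here and below, ± is the size of the log2 fold change divided by the square root of edgeR's F statistic. It is not a standard error from counting, and for genes with few counts it can be smaller than counting error. The residual signal in the knockout was 24 counts over both libraries.

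Most other genes of the m6A machinery were not called, several rose, and 1, Hnrnpc, fell. Of 11 tested writer genes 4 rose and 1, Mettl3 itself, fell, and of 14 reader and eraser genes 3 rose and 1 fell; over all 11951 tested genes, edgeR called 30.4%, with 15.2% higher and 15.1% lower in Mettl3 KO at an adjusted p under 0.05. Wtap, the regulatory subunit that anchors the complex in nuclear speckles, had 347 and 294 CPM in Mettl3 KO, against 142 and 144 CPM in WT. Its level was higher in both knockout libraries by a log2 fold change of 1.14 ± 0.09 (edgeR adjusted p = 6.43e-18). Rbm15, an RNA-binding adaptor of the complex, had 205 and 189 CPM in Mettl3 KO and 91.9 and 89.2 CPM in WT, a log2 fold change of 1.11 ± 0.11 (edgeR adjusted p = 1.56e-13). Mettl14, the partner of Mettl3, was at 96.9 and 115 CPM in Mettl3 KO and 104 and 105 CPM in WT, so that the groups overlapped; its log2 fold change was 0.03 ± 0.12. Among readers, Ythdf2, which recruits the deadenylation machinery to methylated transcripts, had 62.4 and 63.3 CPM in Mettl3 KO and 26.1 and 24.96 CPM in WT (log2 fold change 1.30 ± 0.20, edgeR adjusted p = 9.75e-07). Ythdc1, the nuclear reader, had 312 and 267 CPM in Mettl3 KO and 182 and 185 CPM in WT (log2 fold change 0.64 ± 0.08, edgeR adjusted p = 7.71e-09). Ythdf1, Ythdf3, Fto and Alkbh5 were not called, with log2 fold changes of 0.22, 0.26, 0.18 and 0.10. Ythdf3 was uneven, at 117 and 59.7 CPM in Mettl3 KO against 73.0 and 66.0 CPM in WT, and it passed the threshold without Mettl3 KO B (edgeR adjusted p = 0.0057).

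The smaller changes of this machinery were not called by DESeq2. Zc3h13 (log2 fold change 0.41), the writer of ribosomal RNA methylation Mettl5 (0.33), the reader Igf2bp2 (0.27) and the RNA-binding protein Hnrnpc (-0.42) had DESeq2 adjusted p of 0.31, 0.29, 0.34 and 0.22. Each of these 4 calls was also lost when 1 library was left out: the edgeR adjusted p was 0.32 for Zc3h13 and 0.095 for Mettl5 without Mettl3 KO A, 0.14 for Mettl5, 0.35 for Igf2bp2 and 0.10 for Hnrnpc without Mettl3 KO B, 0.095, 0.12 and 0.32 for Zc3h13, Mettl5 and Igf2bp2 without WT A, and 0.12, 0.059 and 0.059 for Zc3h13, Mettl5 and Hnrnpc without WT B.

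**Figure D1:**
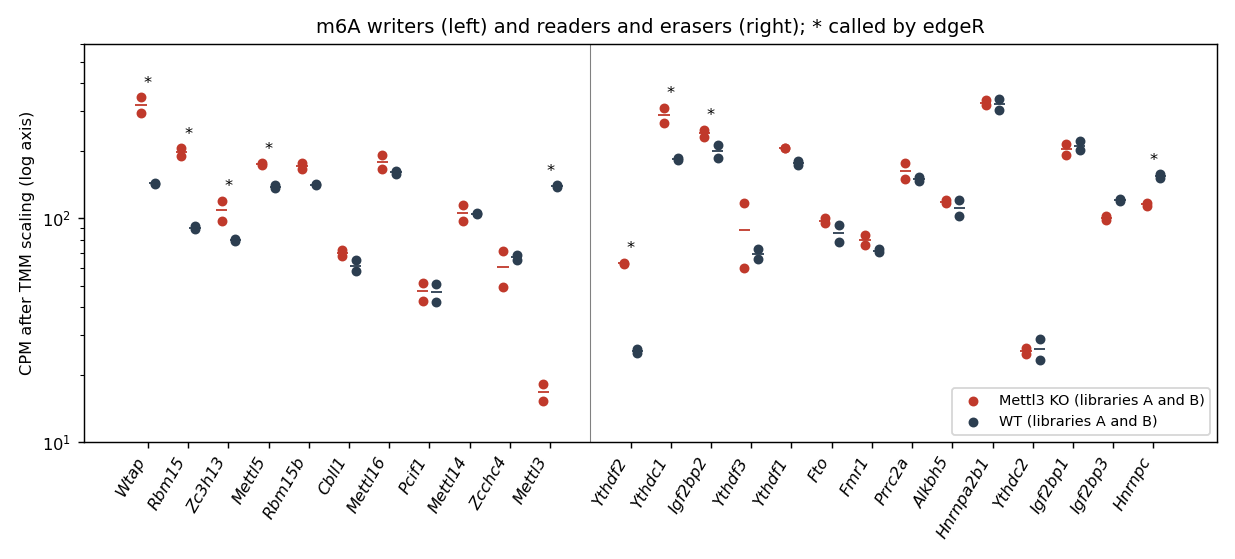
Expression of m6A writers (left) and readers and erasers (right) in Mettl3 KO and WT libraries, in CPM on a log axis; points are libraries A and B and short lines their mean, and asterisks mark edgeR calls. Mettl3 lies at 18.1 and 15.2 CPM in Mettl3 KO and 141 and 137 CPM in WT, and Wtap, Rbm15, Ythdf2 and Ythdc1 lie higher in both Mettl3 KO libraries.

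Mettl3 KO and WT cells differed in 3630 of 11951 tested genes by edgeR's quasi-likelihood test, with 1820 higher and 1810 lower in Mettl3 KO. At a change of at least 2-fold the split was uneven, with 503 genes higher (4.21% of those tested) and 872 lower (7.3%). The median log2 fold change over all tested genes was -0.00085. DESeq2 called 1156 genes (8.59% of 13462 with an adjusted p), of which 558 were higher (4.15%) and 598 lower (4.44%). DESeq2 does not let the spread fall under counting noise. Neither does edgeR's likelihood ratio test, chosen after seeing the data, which called 3607 genes. Of the DESeq2 calls, 1140 were also called by edgeR with the same sign, which is 98.6% of the DESeq2 calls and 31.4% of the edgeR calls. The count of edgeR calls was 2319 without Mettl3 KO B. In the table, 149 genes had no count in either Mettl3 KO library and 50 had none in either WT library.

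**Figure D2:**
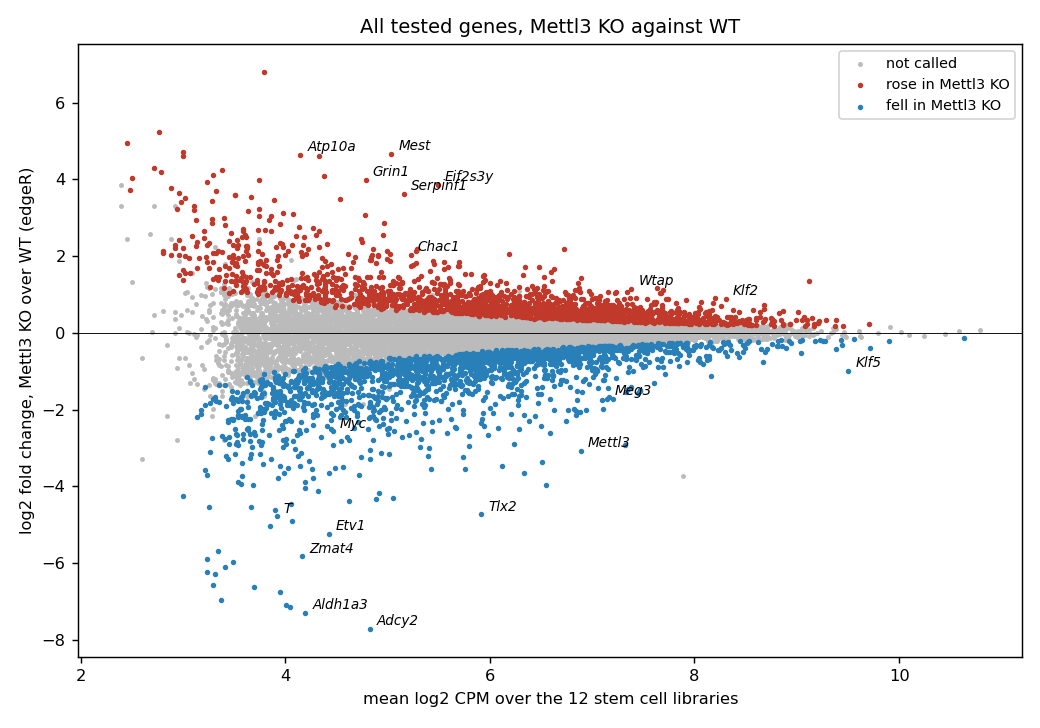
Log2 fold change of Mettl3 KO over WT (edgeR fit) against mean log2 CPM over the 12 stem cell libraries, 1 point per tested gene, red for the 1820 that rose, blue for the 1810 that fell and grey for the rest. The plotted fold change of genes with 0 counts in Mettl3 KO, such as Adcy2 and Aldh1a3, depends on the fit and is not a bound.

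The largest rises belonged to genes of varied function that WT cells barely expressed. Mest, an imprinted gene that encodes a hydrolase-like protein, had 75.6 and 70.3 CPM in Mettl3 KO and 2.70 and 2.67 CPM in WT (log2 fold change 4.68 ± 0.32, edgeR adjusted p = 2.35e-20). Atp10a, a phospholipid flippase, had 62.4 and 57.4 CPM in Mettl3 KO and 0.901 and 3.57 CPM in WT (4.64 ± 0.37). Plbd1, a phospholipase-like protein, stood at 69.0 and 89.0 CPM in Mettl3 KO and 3.60 and 2.67 CPM in WT (4.62 ± 0.32). The rule that picked these genes required both knockout libraries to lie above both WT libraries. Grin1, the obligatory subunit of the NMDA glutamate receptor, had 87.1 and 125 CPM in Mettl3 KO and 8.11 and 5.35 CPM in WT (3.99 ± 0.25, edgeR adjusted p = 7.71e-22). Serpinf1, a secreted serpin that restrains blood vessel growth, reached 98.6 and 104 CPM in Mettl3 KO and 6.31 and 9.81 CPM in WT (3.63 ± 0.23). The next 7 by size were Pdzrn4, the opsin gene Opn3, Ubap1l, the sialomucin Podxl, the MAP kinase phosphatase Dusp4, D8Ertd82e and Pof1b, with log2 fold changes between 2.66 and 3.50. DESeq2 called all 12 of these genes, and none lost its edgeR call when any of the 4 libraries was left out.

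The largest falls reached 0 counts in the knockout. Adcy2, an adenylate cyclase that makes cyclic AMP, had 0 counts in both Mettl3 KO libraries and 33.3 and 30.3 CPM in WT, and was at least 15.5-fold lower in Mettl3 KO, taking 3 counts over both libraries as the floor. Aldh1a3, which makes retinoic acid from retinaldehyde, had 0 counts in Mettl3 KO and 22.5 and 24.96 CPM in WT (at least 11.6-fold lower). Hoxa5, a homeobox gene of the HoxA cluster, and Gc, the vitamin D binding protein, also had 0 counts in Mettl3 KO, with 20.7 and 22.3 CPM and 24.3 and 16.9 CPM in WT; they were at least 10.5-fold and at least 10.0-fold lower. The rule that picked these 4 genes required a call and no overlap between groups. Their edgeR adjusted p lay between 6.22e-13 and 1.07e-08. Of the other 8 largest falls, 6 had between 1 and 3 counts over the Mettl3 KO libraries, so their size is given as a ratio to WT with an exact 95% interval that covers counting error only. The ratio was 0.0145 (0.000365 to 0.0828) for Zmat4, a zinc-finger gene, 0.0218 (0.000544 to 0.126) for the ETS factor Etv1, and 0.0277 (0.00069 to 0.161) for Nsg2, a neuronal vesicle protein. It was 0.0372 (0.00092 to 0.219) for the serpin Serpina3m, 0.0436 (0.00518 to 0.163) for the protease Capn3 and 0.0467 (0.00947 to 0.141) for Panct2. Tlx2, a homeobox gene of the neural crest, had 3.29 and 2.34 CPM in Mettl3 KO and 77.5 and 74.9 CPM in WT (log2 fold change -4.72 ± 0.34, edgeR adjusted p = 6.72e-19). Klf12, a repressor of the Krüppel-like family, had 1.64 and 3.51 CPM in Mettl3 KO and 61.3 and 52.6 CPM in WT (-4.30 ± 0.38). All 12 were also called by DESeq2.

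**Figure D3:**
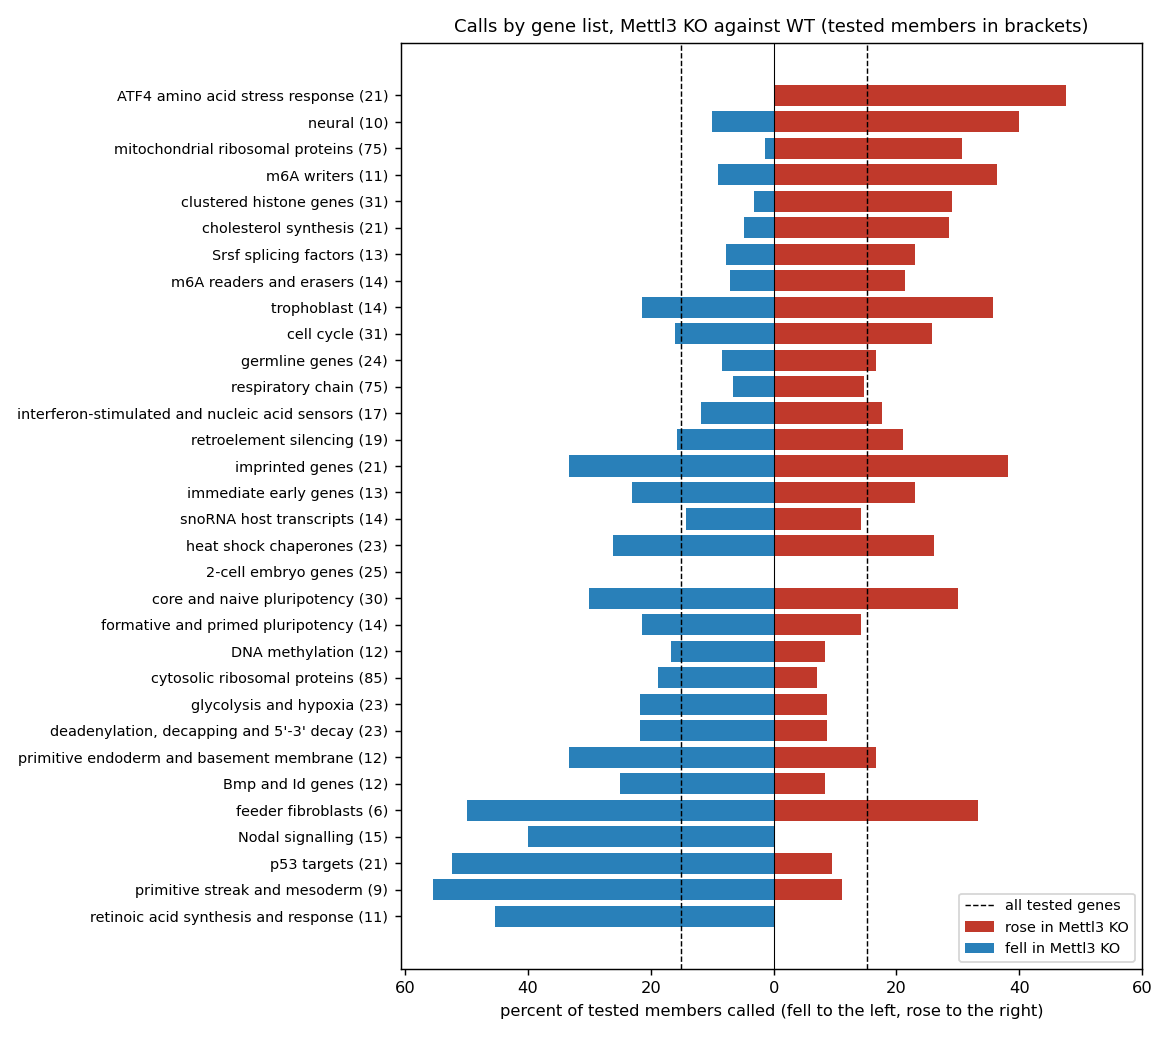
Percent of the tested members of each of 32 gene lists that rose (right) or fell (left) in Mettl3 KO against WT by edgeR, with the number tested in brackets. Dashed lines mark the 15.2% of all tested genes that rose and the 15.1% that fell.

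Core and naive pluripotency genes moved in both directions. Of 30 tested genes 9 rose (30%) and 9 fell (30%), against 15.2% and 15.1% of all tested genes. The median log2 fold change was -0.06, and DESeq2 called 5 higher and 4 lower. Klf5, a factor of naive self-renewal, had 429 and 462 CPM in Mettl3 KO and 875 and 904 CPM in WT, a log2 fold change of -0.99 ± 0.07 (edgeR adjusted p = 8.27e-21). Klf2, a related factor with an overlapping role, went the opposite way, with 535 and 445 CPM in Mettl3 KO and 250 and 273 CPM in WT (0.88 ± 0.08, edgeR adjusted p = 2.83e-15). Both differences far exceeded the gap between libraries A and B. Dppa3, a maternal factor that guards against DNA demethylation in the early embryo and varies among stem cells, had 96.9 and 123 CPM in Mettl3 KO and 36.9 and 31.2 CPM in WT (1.71 ± 0.16). Fbxo15, an F-box gene used as a stem cell marker, rose by 0.74 ± 0.08, while the factors Tbx3 and Tfcp2l1 fell by 0.72 ± 0.10 and 0.53 ± 0.08 on the log2 scale. Outside the rule for named genes, and chosen after their values were seen, Pou5f1 had 779 and 718 CPM in Mettl3 KO and 773 and 788 CPM in WT (-0.07 ± 0.06, edgeR adjusted p = 0.391). Nanog had 696 and 580 CPM in Mettl3 KO and 493 and 494 CPM in WT (0.35 ± 0.07, edgeR adjusted p = 3.97e-05), higher in both knockout libraries.

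Of 14 genes of the formative and primed state, to which naive cells move at implantation, 2 rose and 3 fell, with a median of 0.13. Their share called (35.7%) was near the 30.4% of all tested genes. Dnmt3l, the cofactor of the de novo DNA methyltransferases, had 31.2 and 21.1 CPM in Mettl3 KO and 74.8 and 77.6 CPM in WT (log2 fold change -1.58 ± 0.19, edgeR adjusted p = 6.53e-10). Sox4, a SoxC factor, was the clearest rise, at 49.3 and 49.2 CPM in Mettl3 KO and 15.3 and 11.6 CPM in WT (1.86 ± 0.26). Fgf5, the usual marker of the primed state, did not pass the filter on low counts. The other called members, Cd24a (0.51) and Tcf15 (-1.09), had DESeq2 adjusted p of 0.22 and 0.21. Their edgeR adjusted p was 0.17 for Cd24a without Mettl3 KO A and 0.14 for Tcf15 without Mettl3 KO B, and 0.055 and 0.088 without WT A.

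Single genes of Nodal and Bmp signalling and of the primitive streak, where mesoderm and endoderm first form, changed by 2-fold or more, while most of the signalling genes tested were not called. Of 15 tested Nodal pathway genes 0 rose and 6 fell (40%), against 15.2% and 15.1% of all tested genes, with a median of 0.01. At an unadjusted edgeR p under 0.05, 3 had a higher level, and DESeq2 called 0 higher and 2 lower. The secreted Nodal inhibitor Lefty1 had 9.86 and 10.5 CPM in Mettl3 KO and 43.2 and 41.0 CPM in WT (log2 fold change -2.02 ± 0.29, edgeR adjusted p = 7.96e-08). The receptor Acvr1b had 105 and 104 CPM in Mettl3 KO and 159 and 168 CPM in WT (-0.64 ± 0.11). Both genes, named for their small p, lay lower in each knockout library than in each WT library. The ligand Nodal (-0.43) and the inhibitor Lefty2 (-0.47) fell by edgeR, with DESeq2 adjusted p of 0.17 and 0.16, and Nodal had an edgeR adjusted p of 0.081 without Mettl3 KO B.

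Among 12 tested Bmp and Id genes 1 rose and 3 fell (8.33% and 25%, against 15.2% and 15.1% of all tested genes), and 6 of 12 had a positive log2 fold change (median -0.02; DESeq2 1 higher and 2 lower). The ligand Bmp4 had 8.21 and 8.20 CPM in Mettl3 KO and 35.1 and 41.0 CPM in WT (log2 fold change -2.19 ± 0.34, edgeR adjusted p = 2.40e-07). Of the Id genes, helix-loop-helix inhibitors induced by Bmp, Id3 had 18.1 and 22.3 CPM in Mettl3 KO and 46.8 and 53.5 CPM in WT (-1.28 ± 0.23), whereas Id2 had 70.6 and 52.7 CPM in Mettl3 KO and 30.6 and 28.5 CPM in WT (1.02 ± 0.19). The 2 Id genes thus moved in opposite directions. Of 9 tested genes of the primitive streak and mesoderm 1 rose (11.1%) and 5 fell (55.6%), with a median of -0.70, and DESeq2 called 1 higher and 3 lower. T, the brachyury factor of the streak, had 1 count over the Mettl3 KO libraries and 51 counts over the WT libraries, a ratio of 0.0299 (95% interval 0.000743 to 0.174). Cdx1, a caudal homeobox gene, had 52.6 and 65.6 CPM in Mettl3 KO and 188 and 207 CPM in WT (-1.71 ± 0.12, edgeR adjusted p = 7.08e-19). Eomes had 29.6 and 37.5 CPM in Mettl3 KO and 76.6 and 75.8 CPM in WT (-1.15 ± 0.18). Gsc, the homeobox gene of the organizer, was the exception, at 44.3 and 51.5 CPM in Mettl3 KO and 11.7 and 14.3 CPM in WT (1.89 ± 0.25, edgeR adjusted p = 6.98e-09). Serum-grown cultures can hold a few differentiating cells, and the mesoderm markers above, Eomes among them, were lower in sum in the Mettl3 KO libraries. The part of such cells in these results was not tested.

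Markers of other lineages did not move as 1 block. Of 12 tested primitive endoderm and basement membrane genes 2 rose and 4 fell (median -0.21; DESeq2 1 and 1), and the laminin chain Lama1 fell by 1.18 ± 0.17 on the log2 scale. Of 14 trophoblast genes 5 rose and 3 fell (median 0.36; DESeq2 1 and 2). Cdx2, which specifies trophectoderm, had 1 count in Mettl3 KO and 43 in WT, a ratio of 0.0355 (95% interval 0.000878 to 0.209). Tfap2c, an AP-2 factor also used in germ cells, had 168 and 148 CPM in Mettl3 KO and 68.5 and 68.7 CPM in WT (log2 fold change 1.18 ± 0.12, edgeR adjusted p = 8.99e-13). Of 10 tested neural genes 4 rose (40%) and 1 fell (10%), against 15.2% and 15.1% of all tested genes (median 0.27, DESeq2 3 and 0). Tubb3, the neuronal beta-tubulin, had 123 and 108 CPM in Mettl3 KO and 45.0 and 46.4 CPM in WT (1.32 ± 0.14, edgeR adjusted p = 7.95e-12). Map2, a dendrite protein, and Nes, the filament of neural progenitors, rose by 1.73 ± 0.30 and 1.53 ± 0.31, whereas Pax6 was absent from the table and Sox1 was not called (-0.54). Of 6 tested feeder fibroblast genes 2 rose and 3 fell (median -0.72; DESeq2 1 and 2), with Vim at -1.14 ± 0.12, Pdgfrb at -1.34 ± 0.20 and Thy1 at 2.02 ± 0.43.

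Retinoic acid synthesis and response genes were lower where they changed. Of 11 tested genes 0 rose and 5 fell (45.5%), against 15.2% and 15.1% of all tested genes (median -0.56). At an unadjusted edgeR p under 0.05, 2 were higher, and DESeq2 called 0 higher and 2 lower. Aldh1a3, described above, was among those that fell. The retinoic acid carrier Crabp1 had 31.2 and 32.8 CPM in Mettl3 KO and 56.8 and 53.5 CPM in WT, and Aldh1a2, another enzyme of the synthesis, had 27.9 and 39.8 CPM in Mettl3 KO and 60.4 and 52.6 CPM in WT. They fell by edgeR, by 0.78 and 0.69 on the log2 scale, with DESeq2 adjusted p of 0.17 and 0.23. With 1 library left out their highest edgeR adjusted p was 0.062 for Crabp1 without Mettl3 KO B, and 0.19 for Aldh1a2 without Mettl3 KO A; Aldh1a2 had 0.10 without WT A.

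Imprinted genes, expressed from 1 parental allele, were called in both directions in large number: 15 of 21 (71.4%) changed, with 8 higher and 7 lower, against 30.4% of all tested genes. DESeq2 called 5 higher and 5 lower, and the median was 0.07. Beside Mest, the zinc-finger gene Peg3 had 164 and 156 CPM in Mettl3 KO and 71.2 and 67.8 CPM in WT (log2 fold change 1.20 ± 0.12, edgeR adjusted p = 1.17e-13). Phlda2, which restrains placental growth, had 90.3 and 58.6 CPM in Mettl3 KO and 14.4 and 17.8 CPM in WT (2.14 ± 0.23). Among those that fell, the retrotransposon-derived gene Peg10 had 26.3 and 34.0 CPM in Mettl3 KO and 97.3 and 97.2 CPM in WT (-1.66 ± 0.17), and Plagl1, a zinc-finger gene of an imprinted network, had 36.1 and 24.6 CPM in Mettl3 KO and 92.8 and 96.3 CPM in WT (-1.68 ± 0.18). Each of these 4 genes, named for their small p, separated the groups without overlap. Mest and Peg3 are expressed from the paternal allele, as are Peg10 and Plagl1, so genes of 1 parental origin went both ways. The 2 parental alleles cannot be told apart in gene counts.

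Adjacent genes moved together at 3 places, which were picked after their values were seen. On chromosome 12, the maternally expressed noncoding RNA Meg3 had 47.6 and 56.2 CPM in Mettl3 KO and 161 and 185 CPM in WT (log2 fold change -1.71 ± 0.13, edgeR adjusted p = 9.25e-18). Its neighbour Rian had 32.9 and 12.9 CPM in Mettl3 KO and 74.8 and 90.9 CPM in WT (-1.96 ± 0.22), and Mirg, the next along, had 8.21 and 8.20 CPM in Mettl3 KO and 27.9 and 41.0 CPM in WT (-2.05 ± 0.33). All 3 tested genes of this region thus fell, against 15.1% of all tested genes.

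On chromosome 6, 5 of 7 tested HoxA genes fell (71.4%) and 0 rose, against 15.1% and 15.2% of all tested genes. Of 13 tested genes of the other Hox clusters 1 rose and 3 fell. Their share called (30.8%) was near the 30.4% of all tested genes. At an unadjusted edgeR p under 0.05, 5 HoxA genes were lower and 0 higher. DESeq2 called 4 HoxA genes lower and 0 higher, against 4.44% and 4.15% of all genes with an adjusted p. Hoxa3 had 2 counts over the Mettl3 KO libraries against 24.3 and 28.5 CPM in WT, a ratio of 0.0517 (95% interval 0.00612 to 0.195). Hoxa4 had 1.64 and 5.86 CPM in Mettl3 KO and 18.9 and 22.3 CPM in WT (log2 fold change -2.29 ± 0.46, edgeR adjusted p = 7.35e-05). Hoxa7 had 3.29 and 5.86 CPM in Mettl3 KO and 47.7 and 39.2 CPM in WT (-3.14 ± 0.36, edgeR adjusted p = 3.57e-11). Together with Hoxa5 these genes lie side by side between positions 52169062 and 52221854 of the chromosome (GRCm38). Towards the other end, Hoxa9 and Hoxa10 were not called (-1.34 and -1.05, with 4 counts each in Mettl3 KO).

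Y-linked genes were far higher in Mettl3 KO. Eif2s3y, a translation initiation factor subunit, had 172 and 214 CPM in Mettl3 KO and 14.4 and 12.5 CPM in WT (log2 fold change 3.86 ± 0.18, edgeR adjusted p = 2.62e-26), and Ddx3y, an RNA helicase, had 83.8 and 75.0 CPM in Mettl3 KO and 1.802 and 7.13 CPM in WT (4.09 ± 0.30). All 4 tested Y-linked genes rose by edgeR, against 15.2% of all tested genes, and 3 of them by DESeq2. Summed over 5 Y-linked genes, expression was 338 and 388 CPM in Mettl3 KO, 112 and 116 CPM in the triple KO, between 3.88 and 7.78 CPM in the single knockouts and 18.0 and 21.4 CPM in WT. Mettl3 KO, the triple KO and WT did not overlap one another, whereas the 3 single knockouts overlapped and lay lowest. The part of this difference between the lines in the other results was not tested.

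**Figure D4:**
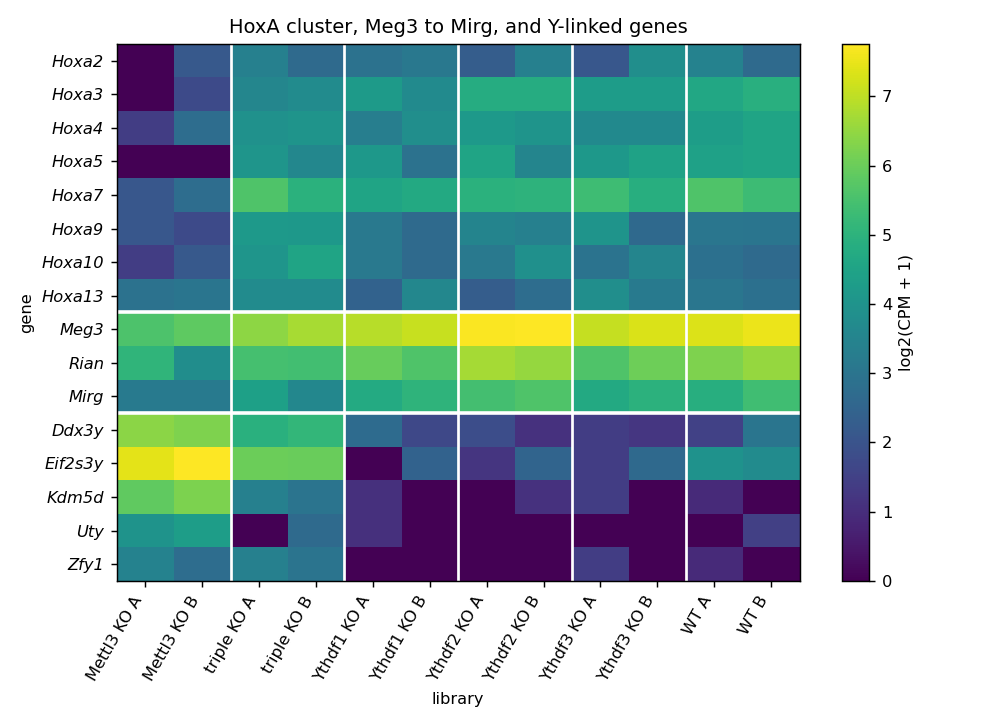
Log2(CPM + 1) of HoxA genes, of Meg3, Rian and Mirg, and of Y-linked genes in the 12 stem cell libraries. Hoxa5 is at 0 in both Mettl3 KO libraries, and Eif2s3y reaches 172 and 214 CPM there against 14.4 and 12.5 CPM in WT.

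The p53 and ATF4 lists were called mostly in opposite directions. Of 21 tested p53 targets, genes that p53 switches on after DNA damage, 2 rose (9.5%) and 11 fell (52.4%), with a median of -0.38. Over all tested genes 15.2% rose and 15.1% fell. DESeq2 called 1 p53 target higher and 4 lower. Ccng1, a cyclin-like target, had 103 and 99.6 CPM in Mettl3 KO and 189 and 184 CPM in WT (log2 fold change -0.88 ± 0.11, edgeR adjusted p = 1.14e-09). Eda2r, a receptor of the TNF family, had 70.6 and 78.5 CPM in Mettl3 KO and 141 and 159 CPM in WT (-0.996 ± 0.121). The apoptosis-enhancing nuclease Aen had 4.93 and 9.37 CPM in Mettl3 KO and 29.7 and 29.4 CPM in WT (-1.95 ± 0.34). In all 3 cases, named for their small p, both knockout libraries lay lower. Trp53, which encodes p53 itself, had 228 and 242 CPM in Mettl3 KO and 322 and 296 CPM in WT (-0.38 ± 0.08, edgeR adjusted p = 0.00037, DESeq2 adjusted p = 0.084). Rrm2b, the p53-inducible ribonucleotide reductase subunit, was the main exception, at 67.3 and 56.2 CPM in Mettl3 KO and 22.5 and 21.4 CPM in WT (1.46 ± 0.21).

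Genes of the ATF4 response, which cells switch on when amino acids run short or translation initiation is slowed, rose where they changed. Of 21 tested genes 10 rose (47.6%) and 0 fell, against 15.2% and 15.1% of all tested genes (median 0.28). At an unadjusted edgeR p under 0.05, 1 was lower, and DESeq2 called 6 higher and 0 lower. Chac1, which degrades glutathione, had 90.3 and 99.6 CPM in Mettl3 KO and 22.5 and 24.1 CPM in WT (log2 fold change 2.03 ± 0.20, edgeR adjusted p = 1.46e-13). The pseudokinase Trib3 had 141 and 146 CPM in Mettl3 KO and 63.1 and 49.0 CPM in WT (1.36 ± 0.13). Cebpb, a partner of ATF4, had 46.0 and 39.8 CPM in Mettl3 KO and 14.4 and 17.8 CPM in WT (1.39 ± 0.25). The proline enzyme Aldh18a1 (0.85 ± 0.10), the serine enzyme Psat1 (0.49 ± 0.08) and the mitochondrial folate enzyme Mthfd2 (0.69 ± 0.11) also rose. The list was not uniform: Asns, the asparagine synthetase and a classical ATF4 target, had 654 and 616 CPM in Mettl3 KO and 674 and 674 CPM in WT (-0.09 ± 0.06, edgeR adjusted p = 0.273).

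ATF4 binds composite sites with C/EBP partners, and the promoters of the list were searched for TGATGNAA on both strands within 250 bases before the start of each gene, from RefSeq (GRCm38.p6). The motif was in 6 of 19 promoters of the list (31.6%), against 2.354% of 9050 tested genes and 3.907% of 27025 genes of the promoter table. Of the 10 genes that rose, 2 held it, Chac1 and Nupr1, and Asns held it without a call. These promoters are shown because they set 2 genes that rose beside 1 that was not called; capitals mark the motif, which reads TTNCATCA on the opposite strand, and each sequence is 5′ to 3′ on the strand of its gene.
Chac1: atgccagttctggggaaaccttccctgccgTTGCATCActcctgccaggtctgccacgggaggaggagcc
Nupr1: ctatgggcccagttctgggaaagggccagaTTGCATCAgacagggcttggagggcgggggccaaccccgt
Asns: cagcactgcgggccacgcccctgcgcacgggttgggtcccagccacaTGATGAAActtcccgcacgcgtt
The Chac1 stretch lies at chr2:119351019-119351088 (plus strand), the Nupr1 stretch at chr7:126625541-126625610 (minus strand) and the Asns stretch at chr6:7693210-7693279 (minus strand). Nupr1, a stress-induced chromatin protein, had 194 and 206 CPM in Mettl3 KO and 165 and 159 CPM in WT (log2 fold change 0.31 ± 0.09, edgeR adjusted p = 0.0236, DESeq2 adjusted p = 0.332). Chac1 and Nupr1, whose rises were of unlike size, thus held the same letters, TTGCATCA, which read TGATGCAA on the opposite strand. Asns, which was not called, held the motif as TGATGAAA, with another base at N. The remaining promoters of the list with the motif, those of Atf3, Slc7a11 and Vldlr, also held TTGCATCA, and these genes were not among those that rose. The letters at N thus did not separate the genes that rose from the others. Whether this base bears on the response was not tested.

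Among 13 tested immediate early genes, which respond to growth signals, 3 rose and 3 fell (median 0.16, DESeq2 2 and 2). Their share called was 46.2%, against 30.4% of all tested genes. Myc had 3.29 and 8.20 CPM in Mettl3 KO and 39.6 and 34.8 CPM in WT (log2 fold change -2.57 ± 0.35, edgeR adjusted p = 7.06e-09). The FGF and ERK inhibitor Spry2 had 115 and 82.0 CPM in Mettl3 KO and 195 and 189 CPM in WT (-1.001 ± 0.119), while the AP-1 factor Jund had 184 and 183 CPM in Mettl3 KO and 78.4 and 92.7 CPM in WT (1.10 ± 0.11). Of 17 tested interferon-stimulated genes and nucleic acid sensors 3 rose and 2 fell (median 0.02, DESeq2 1 and 1). Their share called, 29.4%, was near that of all tested genes. The antiviral membrane protein Ifitm1 had 161 and 166 CPM in Mettl3 KO and 93.7 and 102 CPM in WT (0.75 ± 0.11, edgeR adjusted p = 6.36e-07). Eif2ak2, the double-stranded RNA sensor PKR, had 21.4 and 24.6 CPM in Mettl3 KO and 55.0 and 55.3 CPM in WT (-1.24 ± 0.21).

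Regulators of chromatin and germline genes held few large changes. The share called was 25% for DNA methylation, 36.8% for retroelement silencing and 25% for germline genes, each near the 30.4% of all tested genes. Of 12 tested DNA methylation genes 1 rose and 2 fell (median -0.08; DESeq2 0 higher and 1 lower), Dnmt3l being the one past 2-fold, and Zfp57, which keeps imprints, fell by 0.34 ± 0.07 on the log2 scale (edgeR adjusted p = 0.000227, DESeq2 adjusted p = 0.079). Of 19 tested retroelement silencing genes 4 rose and 3 fell (median 0.07; DESeq2 1 and 0), and Chaf1b, a chromatin assembly subunit, had 315 and 307 CPM in Mettl3 KO and 196 and 226 CPM in WT (0.55 ± 0.08). Of 24 tested germline genes 4 rose and 2 fell (median 0.05; DESeq2 2 and 2). Tdrd12, of the piRNA pathway, had 204 and 168 CPM in Mettl3 KO and 106 and 113 CPM in WT (0.73 ± 0.11), whereas the synaptonemal complex protein Sycp3 had 54.2 and 80.8 CPM in Mettl3 KO and 113 and 143 CPM in WT (-0.87 ± 0.14). The germline gene Hormad2 fell further, by 1.51 ± 0.25 on the log2 scale (DESeq2 adjusted p = 0.023). Rpl10l rose by 0.89 ± 0.09, but it is near-identical to Rpl10 and its counts are uncertain.

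Of 23 tested genes of deadenylation, decapping and 5'-3' decay, the route by which Ythdf2 targets are broken down, 2 rose and 5 fell (median -0.01, DESeq2 1 and 2). The share called, 30.4%, was that of all tested genes. For the Srsf and snoRNA host lists given below, the shares called (30.8% and 28.6%) lay near it. Cnot3, a scaffold of the CCR4-NOT deadenylase, had 112 and 131 CPM in Mettl3 KO and 200 and 194 CPM in WT (log2 fold change -0.68 ± 0.10, edgeR adjusted p = 8.28e-07). Cnot11 had 46.0 and 50.4 CPM in Mettl3 KO and 93.7 and 87.4 CPM in WT (-0.90 ± 0.15), and Tob1, which brings the deadenylase to transcripts, rose by 0.52 ± 0.10. The 13 tested Srsf splicing factor genes (3 rose, 1 fell, median 0.05; DESeq2 1 and 0) and 14 snoRNA host transcripts (2 rose, 2 fell, median -0.22; DESeq2 0 and 0, with 3 higher and 4 lower at an unadjusted edgeR p under 0.05) held small changes; Srsf9 rose by 0.47 ± 0.08.

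Genes of mitochondrial translation rose in part. Of 75 tested mitochondrial ribosomal protein genes 23 rose (30.7%) and 1 fell (1.3%), against 15.2% and 15.1% of all tested genes (median 0.18, DESeq2 6 and 0). Mrpl46 had 255 and 231 CPM in Mettl3 KO and 124 and 130 CPM in WT (log2 fold change 0.92 ± 0.09, edgeR adjusted p = 6.58e-13). Mrpl43 had 232 and 255 CPM in Mettl3 KO and 136 and 127 CPM in WT (0.90 ± 0.09), and Mrps2 rose by 0.78 ± 0.08. Of 85 tested cytosolic ribosomal protein genes 6 rose and 16 fell (18.8% lower, near the 15.1% of all tested genes; median -0.07; DESeq2 2 and 2). Rpl8 had 547 and 505 CPM in Mettl3 KO and 699 and 706 CPM in WT (-0.43 ± 0.06, edgeR adjusted p = 1.37e-07); many genes of this family have processed pseudogenes, which makes their counts uncertain. Of 75 tested respiratory chain genes 11 rose and 5 fell (median 0.06; DESeq2 1 and 1), Cox6b2 being the strongest fall at -0.75 ± 0.11.

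In metabolism, 6 of 21 tested cholesterol synthesis genes rose (28.6%) and 1 fell (4.8%), against 15.2% and 15.1% of all tested genes (median 0.15, DESeq2 2 and 0). Fdps, the farnesyl diphosphate synthase, had 292 and 264 CPM in Mettl3 KO and 192 and 199.7 CPM in WT (log2 fold change 0.49 ± 0.08, edgeR adjusted p = 1.2e-05). Of 23 tested genes of glycolysis and hypoxia 2 rose and 5 fell (median -0.14; DESeq2 0 higher and 3 lower). Pdk1, which holds pyruvate back from mitochondria, had 9.86 and 7.03 CPM in Mettl3 KO and 31.5 and 30.3 CPM in WT (-1.89 ± 0.35, edgeR adjusted p = 1.45e-05), and the glucose transporter Slc2a3 fell by 0.41 ± 0.08. Of 23 tested heat shock chaperones 6 rose and 6 fell (median 0.06; DESeq2 2 and 2). Hspb1 had 88.7 and 42.2 CPM in Mettl3 KO and 186 and 161 CPM in WT (-1.49 ± 0.15), and Hspb8 had 210 and 185 CPM in Mettl3 KO and 101 and 99.0 CPM in WT (0.97 ± 0.11). Of 31 tested cell cycle genes 8 rose and 5 fell (median -0.05; DESeq2 1 and 0), with the pocket protein Rbl1 at 0.78 ± 0.11. Of 31 tested clustered histone genes 9 rose (29.0%) and 1 fell (3.2%), against 15.2% and 15.1% of all tested genes (median 0.15, DESeq2 2 and 0). Hist1h2bg rose by 1.05 ± 0.11 and Hist1h4d by 0.90 ± 0.11. Most histone transcripts lack a poly(A) tail and their gene copies are near-identical, so these counts are uncertain.

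Loss of the writer was also set directly against loss of the 3 cytoplasmic readers, to ask where the cell lines differ. The direct contrast of Mettl3 KO with the triple KO called 2272 of 11951 genes (19%), with 1016 higher (8.5%) and 1256 lower (10.5%) in Mettl3 KO; DESeq2 called 613 (4.46% of those with an adjusted p), with 1.5% higher and 2.96% lower. The edgeR count was 1352 without Mettl3 KO B and 1404 without triple KO B. The comparisons of each knockout with WT share their WT libraries, so their values are given only side by side.

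Genes of the 2-cell embryo, a transient state that a few stem cells enter, differed between the knockouts as a whole list. Of 25 tested genes 0 were called in Mettl3 KO against WT by edgeR and 0 by DESeq2, with 2 higher and 2 lower at an unadjusted edgeR p under 0.05 and a median log2 fold change of 0.28. Against the triple KO all 25 were lower in Mettl3 KO by edgeR, and all 25 by DESeq2, with a median of -4.52. Summed CPM over the list was 141 and 165 in Mettl3 KO, 2447 and 2421 in the triple KO and 150 and 119 in WT. The high level of these genes thus belonged to the triple KO libraries, and Mettl3 KO lay near WT. The median CPM of the list was 3.29 and 3.51 in Mettl3 KO and 5.41 and 3.57 in WT, near the floor, where few changes can be called. Spz1 and Tdpoz4, at 0 CPM in WT and at most 1.17 CPM in Mettl3 KO, could not pass the filter on low counts through either group. For such genes the lower level than in the triple KO was largely set by the filter. Tcstv1 had 2 counts in Mettl3 KO, 97 in the triple KO and 9 in WT, a ratio to the triple KO of 0.0193 (95% interval 0.00231 to 0.0718). Usp26 had 3 counts in Mettl3 KO, 55 in the triple KO and 15 in WT, a ratio to the triple KO of 0.0512 (0.0102 to 0.158). Many genes of this list belong to families of near-identical copies, such as the Zscan4 and Usp17l genes, so the counts of single members are uncertain. Germline genes followed in part, with 14 of 24 lower and 1 higher in Mettl3 KO than in the triple KO (DESeq2 5 and 0).

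**Figure D5:**
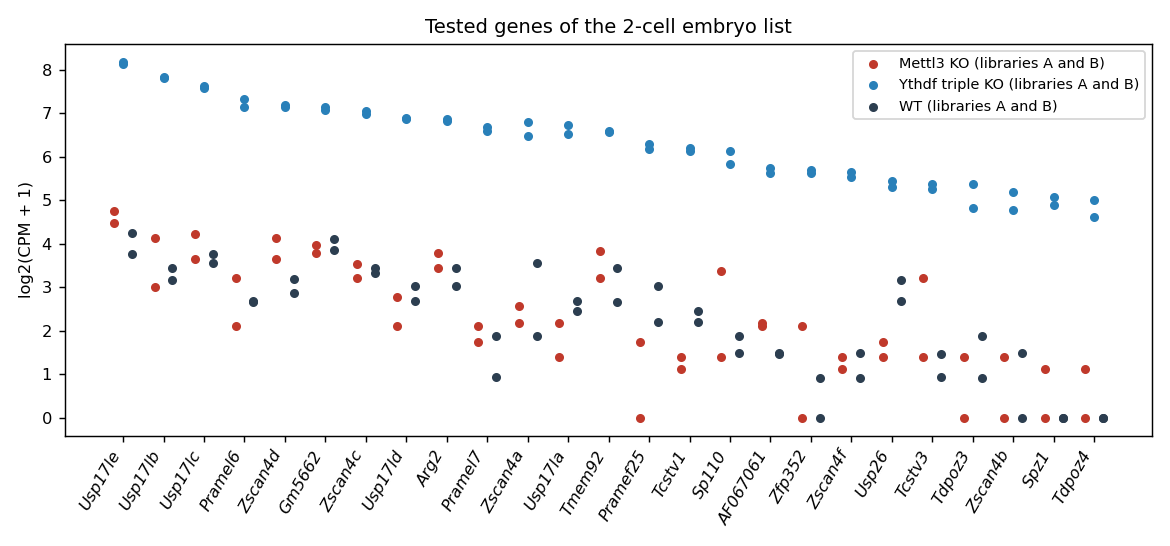
Log2(CPM + 1) of 25 tested genes of the 2-cell embryo list in Mettl3 KO, triple KO and WT; points are libraries A and B, and genes are ordered by their level in the triple KO. The triple KO points lie above those of the other groups for every gene shown.

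Other groups also differed between the knockouts. Over all tested genes, edgeR called 8.5% higher and 10.5% lower in Mettl3 KO than in the triple KO. Of 21 tested p53 targets 1 was higher and 10 were lower in Mettl3 KO than in the triple KO (median -0.59; DESeq2 1 and 7); Ccng1 had 179 and 162 CPM in the triple KO, a log2 fold change for Mettl3 KO of -0.75 (edgeR adjusted p = 1.52e-05). Of 21 tested ATF4 genes 10 were higher and 2 lower (median 0.46; DESeq2 3 and 0); Trib3 had 32.8 and 43.8 CPM in the triple KO, a difference of 1.90 (edgeR adjusted p = 2.30e-15). Of 17 tested interferon-stimulated genes and sensors 7 were higher and 0 lower (median 0.47; DESeq2 3 and 0). Zbp1, a sensor of left-handed double-stranded nucleic acid, had 54.2 and 64.4 CPM in Mettl3 KO, 4.68 and 2.74 CPM in the triple KO and 55.9 and 60.6 CPM in WT. Mettl3 KO thus lay beside WT, and exceeded the triple KO by a log2 difference of 3.99 (edgeR adjusted p = 5.63e-14). Wtap, at 143 and 144 CPM in the triple KO, and Klf2, at 351 and 346 CPM there, were higher in Mettl3 KO by 1.14 and 0.47 (edgeR adjusted p = 2.49e-15 and 4.94e-06). For Dppa3 the triple KO, at 154 and 140 CPM, was not called apart from Mettl3 KO (-0.39, edgeR adjusted p = 0.0548).

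Features of the transcripts that the genotypes did not use bore a weak relation to the response. m6A is known to lie mainly in long internal exons and near stop codons, within the GGACT family of motifs, while sites near splice junctions are spared. For 11061 tested genes with a coding transcript in the annotation (GENCODE M21), split into 5 groups of equal size, the group with the longest internal exons (up to 17106 bases) had a median log2 fold change of 0.07, with 18.6% higher and 12.8% lower in Mettl3 KO. The medians of the other groups, from the shortest up, were 0.01, -0.01, -0.02 and -0.03, so the relation did not run in 1 direction, and the Spearman correlation across genes was 0.024. Among the group of 2212 genes with the longest transcripts, the 738 with the longest internal exons had a median of 0.06, against -0.06 and -0.08 in 2 groups of 737 with shorter ones. By number of exons the medians ran from 0.08 in the group with 1 to 4 exons to -0.04 in the group with 17 to 347, with a Spearman correlation of -0.08. Density of GGACT per kilobase gave medians between -0.01 and 0.02 and a Spearman correlation of 0.024. The number of GGACT motifs gave -0.022. Length of the transcript and of its part after the coding sequence gave -0.056 and -0.058, opposite in sign to the longest internal exon. The group with the longest part after the coding sequence had a median of -0.04, with 12.1% higher and 16.5% lower in Mettl3 KO. These correlations are across genes, which are not independent replicates. All of these shifts are small beside the spread among genes, and expression level differed between the groups as well, with median CPM between 47.4 and 64.3 over the groups by exon number.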

How the data were processed

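Poly(A) RNA of stem cells was sequenced, 2 libraries per genotype, and the values used are the raw counts per gene that the authors deposited in a table of 14006 genes. Per the submitters' processing notes, CASAVA 1.8.2, cutadapt, STAR 2.4.2a and DESeq2 were used with mm10; which counter and annotation served, and whether duplicates were removed, is not stated there. The 24 other per-sample columns of the table and the deposited fold changes were not used. Total counts were between 612598 and 1111764 per library, which limits the precision of genes with few counts. Intervals and floors cover counting error only.

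All 12 libraries entered 1 edgeR 4.0.16 fit (TMM scaling, filterByExpr, robust quasi-likelihood, group as the term; R 4.3.3), adjusted by Benjamini-Hochberg over 11951 genes and called under 0.05. CPM are counts scaled by TMM-adjusted library size. The script was tested on simulated data. DESeq2 1.42.0, another scaling, other filters, a fit on the compared groups, a replicate block and leaving out each library were alternatives. Named genes were the whole m6A machinery, the 12 largest called rises and falls among genes whose average log2 CPM was 4 or more and whose groups did not overlap (leaving out predicted, clone and Y-linked genes), the 5 largest each way against the triple KO, and up to 6 called members of each list by p (2 where none was called). Lists are described by counts and medians, with no set test. The members and lists were chosen with earlier results of these data known. Gene positions are from GENCODE M21 (GRCm38), in which 96.2% of symbols were found. Figures were drawn with matplotlib 3.10.9 and tables made with pandas 2.3.3 and scipy 1.17.1. Some results are not reported here.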

Additional observations from a re-analysis of the deposited data

Results flagged for a closer look

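The direct contrast of Mettl3 KO with the triple KO flagged 10 genes as different between the knockouts, each by edgeR's test of the difference itself. Of these, 5 were higher in Mettl3 KO: the log2 difference was 3.99 for Zbp1, 3.21 for Grin1, 3.13 for Lnx1, 3.04 for Nkx6-3 and 2.94 for Gdpd3. Lnx1, a ubiquitin ligase, had 23.0 and 29.3 CPM in Mettl3 KO, 4.68 and 1.37 CPM in the triple KO and 25.2 and 24.1 CPM in WT. Nkx6-3, a homeobox gene, had 50.9 and 37.5 CPM in Mettl3 KO, 1.56 and 8.21 CPM in the triple KO and 53.2 and 49.9 CPM in WT, so for both genes the triple KO stood apart and Mettl3 KO lay near WT. Gdpd3, a phosphodiesterase, had 42.7 and 57.4 CPM in Mettl3 KO, 7.80 and 5.48 CPM in the triple KO and 7.21 and 15.2 CPM in WT, and Grin1 likewise was high in Mettl3 KO alone among the 3 groups (10.9 and 12.3 CPM in the triple KO).

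The other 5 were lower in Mettl3 KO. With 0 counts there, Adcy2 was at least 20.6-fold lower (46.8 and 38.3 CPM in the triple KO), Hoxa5 at least 6.40-fold (15.6 and 10.95 CPM) and Gc at least 3.20-fold (7.80 and 5.48 CPM). Pramef25, of the 2-cell list, had 2 counts in Mettl3 KO and 102 in the triple KO, a ratio of 0.0184 (95% interval 0.0022 to 0.0682), and Tcstv1 a ratio of 0.0193. Of the 10, Gc was not called by DESeq2 (adjusted p = 0.065), nor by edgeR without Mettl3 KO B (adjusted p = 0.075).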

How the results depend on the processing

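The number of calls depended on the test of spread and on single libraries. DESeq2 called 1156 genes for Mettl3 KO against WT and 613 for Mettl3 KO against the triple KO, where edgeR called 3630 and 2272. With 1 library left out, edgeR called between 2319 and 2819 against WT and between 1352 and 1672 against the triple KO; the lone library of a group is then assumed to vary like the others. RLE scaling gave 3635 and 2276, no expression filter 3922 and 2431, at least 5 CPM in 2 libraries 3882 and 2429, and a fit on the compared groups 3652 and 2185. A likelihood ratio test, chosen after seeing the data, gave 3607 and 2269.

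Of the 188 called changes named against WT, DESeq2 kept 111 and lost 77, and leaving out Mettl3 KO A, Mettl3 KO B, WT A and WT B lost 24, 43, 23 and 26; none of the alternatives run reversed a sign. The fit on the compared groups lost Aldoa. The letters A and B were not taken as pairs: deviations of libraries with the same letter correlated between 0.0045 and 0.186. With the letter as a replicate block, edgeR called 3630 and 2275 genes and changed no named call. The median of the group with the longest internal exons was also 0.07 with the longest transcript of each gene. Depth limits genes near 3 counts, for which ratios are given with intervals.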

Other observations

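Gapdh, picked after its values were seen, divided the tests. It had 18.1 and 17.6 CPM in Mettl3 KO, 572 and 167 CPM in the triple KO and 292 and 184 CPM in WT. Its log2 fold change for Mettl3 KO against WT was -3.73, with an edgeR adjusted p of 0.0601 and a DESeq2 adjusted p of 4.13e-06. The gene has many processed pseudogenes, so its counts are uncertain; the glycolysis and hypoxia list that holds it had a median log2 fold change of -0.14.

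Lin28a, an RNA-binding protein of the naive to primed transition, had 24.6 and 21.1 CPM in Mettl3 KO and 47.7 and 47.3 CPM in WT (log2 fold change -1.07, edgeR adjusted p = 0.000611, DESeq2 adjusted p = 0.125). Gnas, an imprinted signalling gene, had 425 and 417 CPM in Mettl3 KO and 297 and 281 CPM in WT (0.54, edgeR adjusted p = 5.7e-09). Both were picked after their values were seen.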
